A study of Mus musculus with 6 samples.

Results

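The numbered Zfp genes are the mouse zinc-finger genes whose symbol is Zfp followed by a number. Of 365 protein-coding genes of this kind in a table of 54532 genes, 280 were taken, those with at least 1 CPM (counts per 1000000 counts) of the column total in 3 or more of the 6 libraries. The members were thus chosen by their levels in all libraries, and being detected is no finding. These 280 genes lay on 20 chromosomes, and 217 of them reached 1 CPM in every library. Of the 85 that did not pass, 22 had no count at all and 14 were still abundant enough to be tested, of which 8 were lower and 0 higher in PP by edgeR.

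A C2H2 zinc finger is a short fold held by a zinc ion, and a row of such fingers lets a protein read a DNA sequence. Many genes of this family also carry a KRAB box, which recruits the corepressor TRIM28 and, through it, histone methyltransferases and heterochromatin proteins. KRAB zinc-finger genes arose by local duplication, sit in clusters on the chromosomes, and are best known for silencing transposable elements. Other Zfp genes carry no KRAB box, and some of them encode RNA-binding proteins, ubiquitin ligases or ribosome factors.

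RNA was sequenced from AML12 cells, a hepatocyte line established from mice that carry a human TGF-alpha transgene, and labelled here as wild-type parenchymal cells of the liver. The 3 libraries labelled PP came from cells treated for 24 h at 250 µg/ml, in a series whose title names peptides of Camellia oleifera meal and lipid metabolism. The 3 libraries labelled PA/OA, the modelling reagent, had 24 h of treatment, with doses that the submitters give as 400 nM and 800 nM. The labels name PP alone for these libraries, and it is not stated whether PA/OA was given as well; untreated cells were not analysed here.

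Totals ran from 27418502 to 32560589 counts in PP libraries and from 24113169 to 26825673 in PA/OA libraries. The labels do not call the libraries separate cultures, so each p-value here rests on a spread between libraries that may be technical only. Of 13 hepatocyte markers, 10 reached 1 CPM in 3 libraries, with Krt8 and Krt18 the most abundant, and Fgb was at 0 in PP libraries. The albumin gene Alb held 247 to 273 counts in PP libraries and 336 to 401 in PA/OA libraries. The summed hepatocyte markers lay between 3771 and 4123 CPM in PP and between 3059 and 3272 CPM in PA/OA. Markers of bile duct, stromal, endothelial and blood cells summed to 3867 to 4281 CPM in PP and 2344 to 2482 CPM in PA/OA, led by the keratins Krt19 and Krt7. The macrophage-associated marker Cd68 had 27.3 ± 1.63 CPM in PP and 2.78 ± 0.280 CPM in PA/OA (SD, n = 3 each; log2 3.30, edgeR adjusted p = 1.30e-15). Of those 13 genes, 6 reached 1 CPM in 3 libraries, Adgre1 was at 0 in all 6, and Cd3e was at 0 in PP. The part of these markers in the results below was not tested.

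In PP cells 164 of the 280 genes were lower and 61 were higher at an adjusted p under 0.05 (edgeR quasi-likelihood test, Benjamini-Hochberg over all genes tested), and 55 did not pass. Over all 15718 genes tested the same test called 39.9% lower and 35.1% higher, and over the protein-coding genes 36.6% lower and 41.3% higher. The median log2 fold change, PP over PA/OA, was -0.64 for the 280 genes, against -0.09 for all genes and 0.04 for protein-coding genes. A fall of at least 2-fold was called for 108 of the genes and a rise of that size for 13, where 24.5% and 12.1% of all genes, and 17.5% and 13.1% of protein-coding genes, were called in those directions. The split depended on the scaling of the libraries, with 214 lower and 29 higher by library size only and 196 lower and 45 higher with upper-quartile scaling. Those scalings moved the median of all genes by -0.43 and -0.24, and the 280 genes stayed 0.55 below it in each. A change of scaling moves all genes by nearly the same amount, so this gap could hardly change with it. The median of the 280 genes minus that of all genes tested was -0.43 with the abundance trend removed. It was -0.68 with protein-coding genes only and -0.22 with no filter. The values of the PP libraries did not overlap those of the PA/OA libraries for 173 genes that were lower and 62 that were higher, against 41.4% and 36.1% of all genes and 37.9% and 42% of protein-coding genes.

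These counts include 37 genes that reached 1 CPM in PA/OA libraries alone, which had to be lower in PP to be listed, whereas 0 genes reached it in PP libraries alone. Of the 243 genes that reached 1 CPM in at least 1 library of both groups, 130 were lower and 61 higher, with a median log2 fold change of -0.44. Among the genes closest to the limit, Zfp966, Zfp984 and Zfp850 passed with a third-highest value of 1.08, 1.08 and 1.12 CPM, and Zfp473, Zfp493 and Zfp433 missed it with 0.912, 0.912 and 0.820 CPM. Other genes lay over 127 of the 280 genes on the chromosome, on either strand. Among the 153 with none over them, 96 were lower and 34 higher.

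Among the genes that reached 1 CPM in both groups, the 8 with the largest falls are given first. Zfp618, which encodes a partner of the methylcytosine reader UHRF2, had 1.18, 0.796 and 0.764 CPM in PP libraries, against 10.9, 13.2 and 9.86 CPM in PA/OA libraries. Every PP value was below every PA/OA value. It fell by 3.64 ± 0.22 on the log2 scale (SE; adjusted p = 1.36e-12, edgeR). Zfp719, a KRAB gene on chromosome 7 (43579610 to 43593235, build mm10), had 1.35, 1.48 and 1.75 CPM in PP libraries, against 17.5, 18.9 and 19.0 CPM in PA/OA libraries. The PA/OA libraries differed little among themselves, and the fall was 3.59 ± 0.16 (log2, SE; adjusted p = 8.99e-15, edgeR).

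Zfp599, which also carries the KRAB pattern, had 0.673, 0.941 and 1.46 CPM in PP libraries, against 9.56, 9.79 and 9.18 CPM in PA/OA libraries. Zfp595 averaged 1.48 ± 0.668 CPM in PP cells and 12.7 ± 1.08 CPM in PA/OA cells (SD, n = 3 each). Zfp27 averaged 1.76 ± 0.548 CPM in PP cells and 15.1 ± 0.950 CPM in PA/OA cells. For these 3 genes the PP libraries varied in relative terms more than the PA/OA libraries, and the groups did not overlap. Their log2 fold changes were -3.20, -3.12 and -3.10 (edgeR adjusted p = 3.07e-11, 2.59e-11 and 1.61e-12). Zfp84 fell by 2.87 and Zfp672 by 2.84 on the log2 scale, with adjusted p = 4.05e-13 and 2.42e-14 by edgeR.

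Zfp568 encodes a KRAB protein that silences a placental transcript of the growth factor gene Igf2 in mice, and it was the most abundant of these 8 genes in PA/OA cells. It had 8.50, 6.84 and 12.6 CPM in PP libraries, against 64.2, 61.8 and 66.0 CPM in PA/OA libraries. The PP libraries varied among themselves, and the highest lay far under the lowest PA/OA library. The fall was 2.78 ± 0.13 (log2, SE; adjusted p = 3.03e-14, edgeR).

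The largest rise was that of Zfp36, which encodes tristetraprolin, a protein that binds AU-rich elements in mRNAs and speeds their decay. It had 117, 116 and 101 CPM in PP libraries, against 20.3, 19.2 and 17.3 CPM in PA/OA libraries. The groups were far apart in every library, and the rise was 2.55 ± 0.08 (log2, SE; adjusted p = 3.39e-17, edgeR). Zfp36 has no C2H2 finger; its fingers are of the CCCH kind.

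Zfp143, an activator of many mRNA and small nuclear RNA promoters, had 97.6, 100.4 and 112 CPM in PP libraries, against 29.4, 26.8 and 30.7 CPM in PA/OA libraries. All PP values were higher, by 1.83 ± 0.07 on the log2 scale (SE; adjusted p = 1.97e-15, edgeR). Zfp9 averaged 36.5 ± 3.09 CPM in PP cells and 12.3 ± 1.59 CPM in PA/OA cells, and Zfp395 averaged 78.0 ± 3.92 CPM in PP cells and 29.6 ± 2.06 CPM in PA/OA cells (SD, n = 3 each). Both rose in all libraries, with log2 fold changes of 1.56 and 1.40 (edgeR adjusted p = 1.31e-11 and 1.85e-13).

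Zfp524 and Zfp973 also rose, but their counts are uncertain. Zfp524, whose human counterpart binds telomeric repeats, averaged 6.22 ± 0.406 CPM in PP cells and 1.70 ± 0.591 CPM in PA/OA cells, and other genes share 51.6% of its exon bases. Zfp973 had 4.59, 3.40 and 4.77 CPM in PP libraries, against 1.91, 0.166 and 1.93 CPM in PA/OA libraries. The second PA/OA library stood apart for Zfp973, and 86.3% of the 50-base words of its transcripts also occurred in transcripts of other genes. Its log2 fold change of 1.67 had an adjusted p of 0.0011 by edgeR and 0.0794 by DESeq2.

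**Figure D1:**
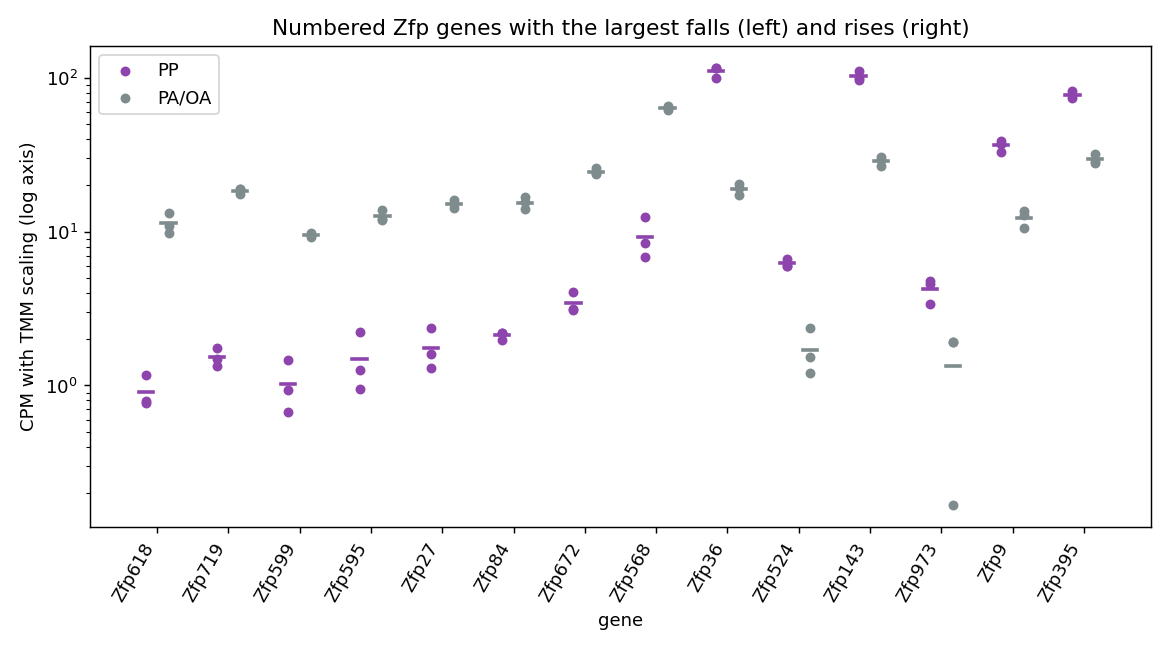
CPM with TMM scaling on a log axis for the 8 genes with the largest falls and the 6 with the largest rises. The choice was made among genes that reached 1 CPM in both groups. PP libraries are in purple, left of PA/OA libraries in grey. Points are libraries and bars the mean of 3. Groups do not overlap for any of these genes, which was a condition of the choice, and Zfp36 averaged 111 CPM in PP and 18.9 CPM in PA/OA.

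The start regions of 4 of these genes are shown because they carry the largest falls and rises with counts of their own. Each line gives the 250 bases before a RefSeq transcript start (build GRCm38.p6), 5′ to 3′ on the gene's strand, with capitals for any of the motifs listed next, on either strand.
Zfp618: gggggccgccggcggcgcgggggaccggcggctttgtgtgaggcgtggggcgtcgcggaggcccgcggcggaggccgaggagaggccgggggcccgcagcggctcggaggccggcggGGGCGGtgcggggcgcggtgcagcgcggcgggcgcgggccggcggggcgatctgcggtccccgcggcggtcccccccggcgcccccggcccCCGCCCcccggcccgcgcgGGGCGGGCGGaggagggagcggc
Zfp719: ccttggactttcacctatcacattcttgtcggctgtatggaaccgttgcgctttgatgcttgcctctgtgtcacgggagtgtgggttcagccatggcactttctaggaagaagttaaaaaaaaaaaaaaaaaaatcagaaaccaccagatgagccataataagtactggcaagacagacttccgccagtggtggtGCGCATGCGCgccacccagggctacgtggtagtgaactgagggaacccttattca
Zfp36: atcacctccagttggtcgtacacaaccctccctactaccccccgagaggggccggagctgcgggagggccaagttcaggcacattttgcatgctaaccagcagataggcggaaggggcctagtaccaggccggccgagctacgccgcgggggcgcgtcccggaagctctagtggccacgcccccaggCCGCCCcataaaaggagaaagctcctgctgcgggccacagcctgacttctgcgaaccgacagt
Zfp143: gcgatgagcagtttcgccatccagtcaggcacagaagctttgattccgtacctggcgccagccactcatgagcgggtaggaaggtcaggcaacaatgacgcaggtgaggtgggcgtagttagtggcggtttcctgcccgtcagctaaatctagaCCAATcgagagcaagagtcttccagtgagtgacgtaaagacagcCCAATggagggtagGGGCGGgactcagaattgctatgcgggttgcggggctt

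The motifs searched were the GC box (GGGCGG), the CCAAT box (CCAAT), the TATA box (TATAAA), and sites for ETS factors (CCGGAAGT), NRF1 (GCGCATGC), AP-1 (TGANTCA), E-box factors (CACGTG) and CREB (TGACGTCA). Zfp618 held GC boxes, of which the last 2 overlap, Zfp719 held NRF1 matches on both strands that overlap, Zfp36 a GC box, and Zfp143 a pair of CCAAT boxes and a GC box. The printed regions are chr4:62965317-62965566 for Zfp618, chr7:43579336-43579585 for Zfp719, chr7:28379229-28379478 for Zfp36 and chr7:110061452-110061701 for Zfp143. The RefSeq start lay 1025 bases from the table's gene start for Zfp36 and 485 bases for Zfp143.

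Of the 280 genes, 235 had a RefSeq start region, taken from 250 bases before to 50 bases after the start. CCAAT boxes were in 53.2% of them, against 37.8% of all 27025 such regions, and GC boxes in 48.1%, against 35.6%. ETS matches were in 11.1%, against 3.93%, and TATA boxes in 6.38%, against 14.1%. The median ratio of observed to expected CpG was 0.647 for the 235 regions and 0.380 for all. Of 138 regions of genes that were lower, 73 held a CCAAT box, 58 a GC box and 18 an ETS match. Of 50 regions of genes that were higher, 24 held a CCAAT box, 27 a GC box and 6 an ETS match. The set of all regions was not limited to genes detected here, unlike the members. In that set the start of lowest coordinate was taken for each gene. For members it was the start nearest the table's gene start, so the sets differ in more than gene family. These shares are descriptions and were not tested.

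By protein class, the KRAB genes made up most of the falls. The longest coding sequence of each gene was translated and scanned for the core of the KRAB A box, which 139 of the 280 genes matched; known KRAB genes such as Zfp235 lack the match, so the class is incomplete. Of the 139 genes, 99 were lower and 18 higher, with a median log2 fold change of -0.93. Of the 141 genes without the pattern, 65 were lower and 43 higher, with a median of -0.26. Among genes that reached 1 CPM in both groups, 76 of 114 KRAB genes were lower and 18 higher, and 54 of 129 other genes were lower and 43 higher. The KRAB genes were also less abundant, with a median average log2 CPM of 2.75, against 4.55 without the pattern, and the difference between these classes was not tested.

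Most tested KRAB genes without a numbered Zfp symbol were lower as well. Of 88 other protein-coding genes with the pattern and a C2H2 finger, 60 were tested, and 42 were lower and 4 higher, with a median log2 fold change of -1.11. Their median average log2 CPM was 2.04, against 2.75 for the KRAB members, and the part of abundance was not tested. The tested genes here and in the families below were not limited to those at 1 CPM in both groups. Genes detected through PA/OA alone, which had to be lower, can thus be among them. Other zinc-finger genes varied. The 23 tested genes with another Zfp name had 13 lower and 8 higher (median -0.68), and 145 other genes of the table's zf-C2H2 family had 69 lower and 43 higher (median -0.34). The Zbtb genes, which join fingers to a BTB domain, had 19 of 39 tested genes lower and 14 higher (median -0.35), and the CCCH-type Zc3h genes had 7 of 18 lower and 9 higher (median 0.15). None of these differences between families was tested.

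In summed abundance the KRAB genes were lower in PP with TMM scaling and as a share of the library. They held 1290 ± 36.0 CPM in PP cells and 1870 ± 69.4 CPM in PA/OA cells with TMM scaling, and 0.111% and 0.217% of the library totals (SD, n = 3 each). The genes without the pattern held 6052 ± 134 CPM in PP cells and 5289 ± 45.6 CPM in PA/OA cells with TMM scaling, but 0.520% in PP and 0.614% in PA/OA as a share of the library, so their direction turned with the scaling. For all 280 genes together the sums were 7342 ± 163 CPM in PP and 7159 ± 87.9 CPM in PA/OA, and the shares were 0.631% and 0.831%, which again turned the direction. Without Zfp106 and Zfp91 the TMM sums were 6239 ± 136 CPM in PP and 6532 ± 82.3 CPM in PA/OA, so the higher sum in PP also rested on those 2 genes. Fewer cells that express a gene and less RNA per cell cannot be told apart in such sums.

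The number of fingers ran alongside the fold change. Among 16 genes with 1 to 2 finger patterns, 2 were lower and 10 higher, with a median log2 fold change of 0.19. With 3 to 6 fingers 20 of 42 genes were lower and 13 higher, and with 7 to 9 fingers 30 of 61 were lower and 12 higher, with medians of -0.24 and -0.29. With 10 to 13 fingers 54 of 82 genes were lower and 16 higher (median -0.67), and with 14 to 40 fingers 56 of 71 were lower and 7 higher (median -1.20). These counts and medians include genes that passed through PA/OA alone, which had to be lower to be listed. They were not computed without such genes. Across the 280 genes Spearman's rho between finger number and log2 fold change was -0.31. Over the 243 genes at 1 CPM in both groups it was -0.35. These correlations are across genes that share libraries and, in part, ancestry, and gene length gave a rho of -0.04. Genes with more fingers were also less abundant. From the fewest to the most fingers the median average log2 CPM was 5.57, 4.54, 3.79, 3.15 and 2.97. The part of abundance in the finger trend was not tested.

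**Figure D2:**
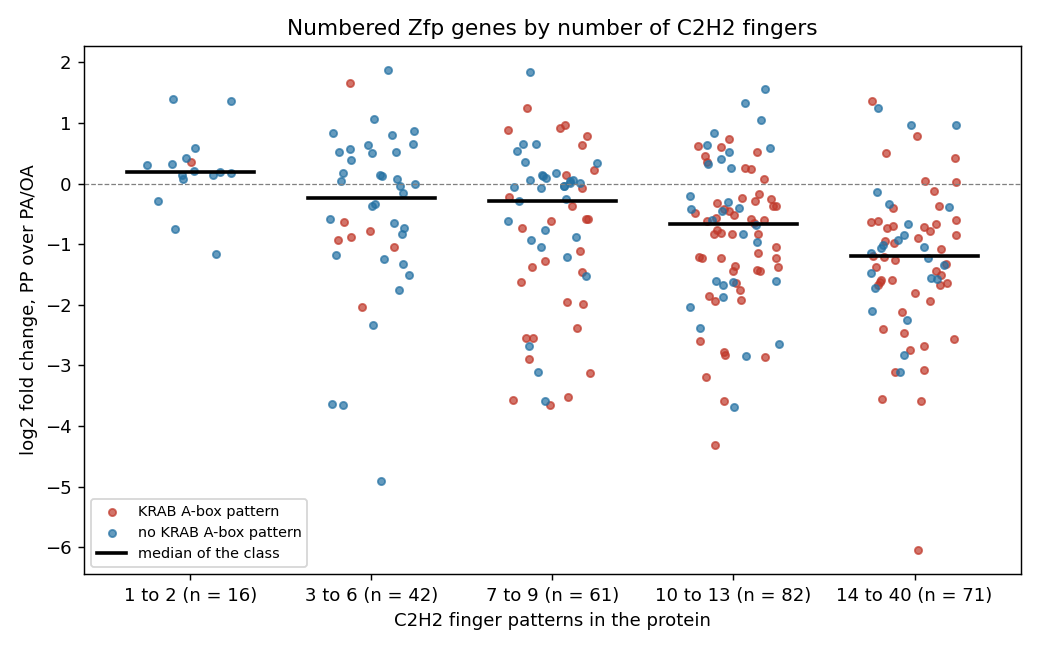
Log2 fold change, PP over PA/OA, of the numbered Zfp genes by the number of C2H2 finger patterns in their protein, coloured by the KRAB pattern; points are genes, spread sideways at random, and black bars are medians. The medians run from 0.19 with 1 to 2 fingers to -1.20 with 14 to 40, and every class holds genes on both sides of 0. Points and medians include genes that reached 1 CPM in PA/OA libraries only, which are not marked here.

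Abundance ran alongside the fold change more closely, with a rho of 0.57 over the 280 genes. Over the 243 at 1 CPM in both groups it was 0.44. The same trend was present in other protein-coding genes, so the medians are given side by side in bins of average log2 CPM. The other genes given here also had at least 1 CPM in 3 libraries. Under 1 the numbered Zfp genes had a median log2 fold change of -1.76, against -0.99 for other protein-coding genes. Most numbered Zfp genes of that bin passed through PA/OA alone, and over those at 1 CPM in both groups the medians were -0.66 for 10 numbered Zfp genes and -0.06 for 299 others. Between 1 and 2 the medians were -1.62 and -0.58, or -1.06 and -0.41 over genes at 1 CPM in both groups. Between 2 and 3 they were -1.25 and -0.41, and between 3 and 4 they were -0.73 and -0.29. Between 4 and 5 both were -0.04. Between 5 and 6 the numbered Zfp genes were at -0.10 and the others at 0.19, and at 6 and over they were at 0.17 and 0.45.

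Within the bins the KRAB class was not always the lower one. Between 2 and 3 the 28 KRAB genes had a median of -1.03 and the 12 genes without the pattern one of -1.54, and between 3 and 4 the medians were -0.62 for 30 KRAB genes and -1.06 for 21 others. Between 4 and 5 they were -0.37 for 19 KRAB genes and 0.06 for 30 others. The KRAB genes were also lower between 1 and 2 (-1.81 for 31, against -1.10 for 10 others) and between 5 and 6 (-0.61 for 8, against -0.001 for 30 others). Under 1 the medians were -1.64 for 21 KRAB genes and -1.87 for 13 others, and at 6 and over only 2 genes had the pattern. The bins under 1 and from 1 to 2 include genes that passed through PA/OA alone. After removal of each library's own trend with abundance, the median of the 280 genes was -0.43 and that of the KRAB genes -0.64.

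**Figure D3:**
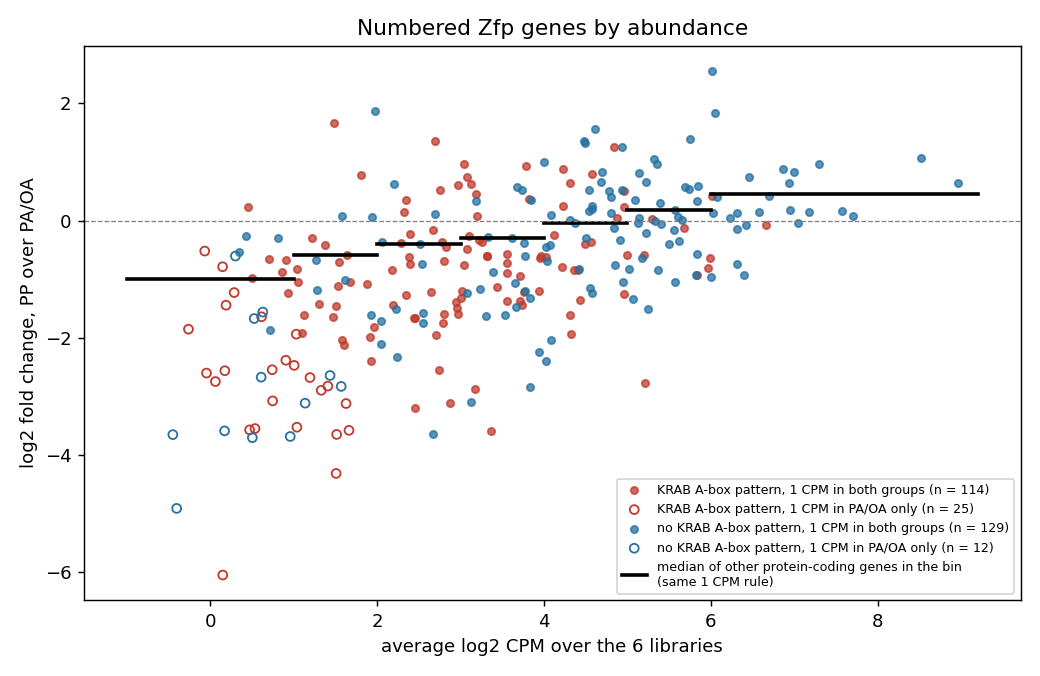
Log2 fold change, PP over PA/OA, against average log2 CPM over the 6 libraries for the 280 genes, in red with and in blue without the KRAB pattern; open circles reached 1 CPM in PA/OA libraries only, and black bars are medians of other protein-coding genes that met the same 1 CPM rule in each bin. The points lie mostly below the bars at an average log2 CPM under 4, and open circles are all below 0.

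The 37 genes that reached 1 CPM only in PA/OA libraries are given as values. Their PA/OA means ran from 1.03 to 5.51 CPM with a median of 2.44, and their PP means ran from 0.0241 to 0.908 CPM with a median of 0.458. The KRAB pattern was present in 25 of them. Zfp229 had 12, 10 and 14 counts in PP libraries, against 197, 158 and 140 in PA/OA libraries. Zfp418, a KRAB gene, had 0, 2 and 0 counts in PP libraries, against 46, 50 and 78 in PA/OA libraries, and Zfp213 had 0, 2 and 1 counts in PP libraries, against 37, 31 and 45 in PA/OA libraries. At these counts single libraries weigh heavily, and no fold is given.

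By position, 146 of the 280 genes lay in 29 chromosome clusters, defined as 3 or more protein-coding numbered Zfp genes with at most 250 kb between successive starts. Of the genes in clusters 100 were lower and 21 higher, with a median log2 fold change of -0.86. Of the 134 outside clusters 64 were lower and 40 higher, with a median of -0.27. Without the genes that passed through PA/OA alone, 77 of 121 genes in clusters were lower and 21 higher (median -0.73), and 53 of 122 outside were lower and 40 higher (median -0.10). The genes in clusters were also less abundant, with a median average log2 CPM of 2.79, against 4.31 outside. Without the genes that passed through PA/OA alone these medians were 3.12 and 4.58. The difference between genes in and outside clusters was not tested. Among the 22 clusters with at least 3 members, 20 had a median below 0 and 14 held genes in both directions. The SD of the fold changes within clusters was 1.25, against 1.31 over all members. In 117 neighbouring pairs the median absolute difference was 1.13, with 57 pairs both lower, 4 both higher and 20 opposite. The cluster medians, this SD and the pairs include genes that passed through PA/OA alone, which had to be lower to be listed. They were not computed without such genes.

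The cluster on chromosome 13 from 67038596 to 67827002 (build mm10) moved in 1 direction. Of its 13 members 10 were lower and 0 higher, and the median was -1.56. Its members ran from Zfp953, with 0.393 ± 0.147 CPM in PP and 4.99 ± 0.354 CPM in PA/OA, to Zfp456, with 1.21 ± 0.321 CPM in PP and 1.90 ± 0.175 CPM in PA/OA (SD, n = 3 each). Zfp456 did not pass (log2 fold change -0.66, edgeR adjusted p = 0.0694), and its sign turned when the trend with abundance was removed. It passed as lower with 5 other settings (adjusted p from 0.00419 by library size only to 0.0453 with the 1 CPM filter) and without PP replicate 1 (0.0434). Only 9 of the 13 reached 1 CPM in both groups.

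The cluster on chromosome 17 from 21383748 to 22456689 held 16 members, all with the KRAB pattern, in both directions. Of these 9 were lower and 4 higher, and the median was -0.37. The genes that rose were Zfp54, Zfp51, Zfp52 and Zfp948, all among the first 6 members in the order of their starts, and the 9 genes that were lower stood after them. Zfp52 had 9.72, 8.32 and 9.97 CPM in PP libraries, against 3.09, 4.13 and 3.64 CPM in PA/OA libraries. It rose by 1.37 ± 0.17 (log2, SE; adjusted p = 2.85e-07, edgeR), with no overlap between groups. Zfp51 averaged 30.3 ± 2.06 CPM in PP cells and 17.5 ± 1.14 CPM in PA/OA cells, and Zfp948 averaged 36.4 ± 2.24 CPM in PP cells and 25.5 ± 0.616 CPM in PA/OA cells. Zfp229, at the other extreme of the same cluster, had the counts given above.

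On chromosome 7 the cluster from 29768552 to 30169750 held 13 members, among them Zfp84, Zfp27 and Zfp568. Of these 9 were lower and 3 higher, and the median was -1.33. Zfp382 had the highest fold change there, at 4.40 ± 0.519 CPM in PP and 2.55 ± 0.387 CPM in PA/OA (log2 0.79 ± 0.22, SE; adjusted p = 0.00305, edgeR), a call lost by library size only (0.153). Zfp260, between Zfp568 and Zfp382 on the chromosome, averaged 76.8 ± 4.73 CPM in PP and 58.0 ± 3.03 CPM in PA/OA. Genes within this one cluster therefore lay on both sides of 0.

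Another cluster on chromosome 7, from 24081924 to 24587641, had the lowest median of the clusters with 3 or more members, at -2.20. Of its 8 members 7 were lower, 4 of which reached 1 CPM in PA/OA libraries only, and Zfp180 was higher. Zfp180 had 51.7, 57.2 and 53.3 CPM in PP libraries, against 27.3, 25.3 and 25.7 CPM in PA/OA libraries. Its rise was 1.05 ± 0.08 (log2, SE; adjusted p = 4.73e-11, edgeR). Zfp94 of the same cluster had 0.244 ± 0.183 CPM in PP and 5.11 ± 0.436 CPM in PA/OA.

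Of the other clusters of 6 to 8 members, those on chromosomes 6, 7 and 17 held genes in both directions. On chromosome 17 from 32771236 to 33394641, 4 of 8 members were lower and 1 was higher, from Zfp799 with 0.696 ± 0.247 CPM in PP and 4.93 ± 0.496 CPM in PA/OA to Zfp871, whose log2 fold change of 0.42 turned to -0.01 by library size only and did not pass with upper-quartile scaling (adjusted p = 0.0535) or without the trend (0.103). On chromosome 7 from 127233061 to 127615797, 5 of 7 were lower and 2 higher, with Zfp553 the highest (log2 0.53, adjusted p = 0.398 by library size only) and Zfp764 the lowest, at 0.552 ± 0.347 CPM in PP and 4.17 ± 0.397 CPM in PA/OA. On chromosome 6 from 47819266 to 48086593, 4 of 6 were lower, with Zfp282 at -0.83, and Zfp212 was higher, at 0.50, but not by library size only (adjusted p = 0.492). On chromosome 4 from 146971976 to 147848366, 3 of 6 were lower and 0 higher. There the lowest was Zfp985, with 0.243 ± 0.0570 CPM in PP and 1.49 ± 0.277 CPM in PA/OA, and the highest Zfp982, at 0.23, which did not pass. The sign of Zfp982 turned by library size only, with upper-quartile scaling and without PA/OA replicate 2, and with the abundance trend removed it was higher (log2 0.97, adjusted p = 0.0315).

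**Figure D4:**
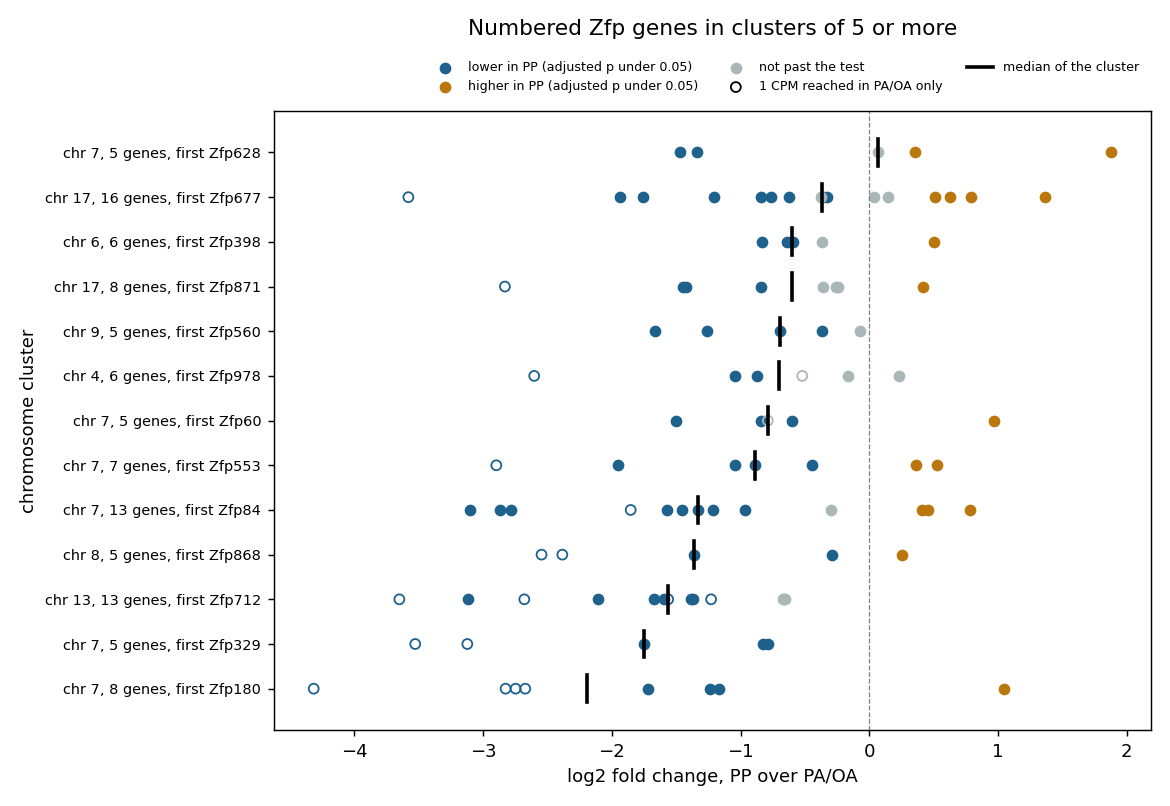
Log2 fold change, PP over PA/OA, of the members of each chromosome cluster with at least 5 members, ordered by the cluster's median (black bars); blue points were lower and orange points higher in PP, grey points did not pass, and open circles reached 1 CPM in PA/OA libraries only. Medians run from -2.20 to 0.07, and 9 of the 13 clusters hold points called on both sides of 0.

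Members with a described function are given next. Of 35 listed genes 32 were members, and 12 (37.5%) were higher, 10 (31.3%) lower and 10 did not pass, near the 41.3% higher and 36.6% lower of protein-coding genes. Those 10 had log2 fold changes between -0.07 and 0.20. Per length, over both groups, the highest levels were those of Zfp106, with 58.0 RPKM (CPM per kilobase of gene length) in PP and 37.4 RPKM in PA/OA, and Zfp598, with 46.1 RPKM in PP and 41.9 RPKM in PA/OA. The order differed by group, since Zfp91 with 49.5 RPKM stood above Zfp598 in PP, and Zfp598 and Zfp706 stood above Zfp106 in PA/OA. The median member had 1.70 RPKM in PP and 2.97 RPKM in PA/OA. Zfp106 encodes an RNA-binding protein needed for motor neurons, and 26.1% of its exon bases are shared with another gene. Its log2 fold change of 0.64 went to 0.04 (adjusted p = 0.485) with the abundance trend removed.

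Zfp91, described as a ubiquitin ligase, had 509.8, 482 and 499.6 CPM in PP libraries, against 246, 238 and 229.6 CPM in PA/OA libraries. All PP libraries were over all PA/OA libraries, with a log2 fold change of 1.06 ± 0.05 (SE; adjusted p = 5.64e-14, edgeR). Zfp622, a factor of ribosome assembly, averaged 150.3 ± 6.06 CPM in PP and 82.0 ± 2.25 CPM in PA/OA. Zfp330, a nucleolar protein gene, averaged 109.6 ± 5.35 CPM in PP and 65.4 ± 5.63 CPM in PA/OA. Both rose, with log2 fold changes of 0.87 and 0.74 (edgeR adjusted p = 5.86e-12 and 1.66e-09).

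Zfp598, a ubiquitin ligase that senses collided ribosomes, Zfp207, which binds spindle microtubules, and Zfp740 had log2 fold changes of 0.14, 0.17 and 0.19, which turned negative by library size only, with upper-quartile scaling and without the abundance trend. For Zfp598 the groups overlapped, and its adjusted p was 0.044 by edgeR and 0.0594 by DESeq2. Without PA/OA replicate 1 it was 0.0969, without PA/OA replicate 2 0.206 and without PP replicate 1 0.0756, and for Zfp207 it was 0.0118 and, without PA/OA replicate 3, 0.0606. Zfp706, with 43.2 RPKM in PP and 40.8 RPKM in PA/OA, did not pass, and its sign turned under the same settings.

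Zfp335, a regulator of brain development, and Zfp217, an oncogene amplified in human breast cancer, rose by log2 0.59 and 0.54, the call of Zfp217 being lost by library size only (adjusted p = 0.194). Zfp346, which binds double-stranded RNA, and Zfp318, needed for the IgD transcript of B cells, had log2 fold changes of 0.39 and 0.30 that turned negative by library size only, and neither passed with upper-quartile scaling. These 4 genes averaged 69.0, 63.4, 31.6 and 46.4 CPM in PP, against 45.7, 43.6, 24.0 and 37.7 CPM in PA/OA.

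Among the genes that fell, Zfp57 encodes the KRAB protein that keeps methylation at imprinted loci. It had 46.0, 54.8 and 48.4 CPM in PP libraries, against 74.8, 76.5 and 81.0 CPM in PA/OA libraries. All PP values were lower, by a log2 fold change of -0.64 ± 0.07 (SE; adjusted p = 5.82e-08, edgeR). Zfp809, which silences murine leukaemia virus in embryonic stem cells, averaged 8.73 ± 0.747 CPM in PP and 14.5 ± 1.33 CPM in PA/OA (log2 -0.73). The groups of both KRAB genes did not overlap.

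Zfp638, which takes part in silencing unintegrated retroviral DNA, averaged 59.1 ± 0.792 CPM in PP and 99.4 ± 6.03 CPM in PA/OA, and Zfp827, which brings a chromatin remodeller to telomeres, had 20.5, 19.3 and 20.3 CPM in PP libraries, against 44.3, 36.4 and 43.5 CPM in PA/OA libraries. Their log2 fold changes were -0.75 and -1.05 (edgeR adjusted p = 5.06e-10 and 7.83e-10). Zfp369 and Zfp110 encode factors that bind a neurotrophin receptor, and fell by log2 0.93 and 0.79. Zfp462, a chromatin regulator in embryonic stem cells, fell by 0.93 on the log2 scale. Zfp410, an activator of Chd4, averaged 26.6 ± 0.147 CPM in PP and 33.4 ± 1.89 CPM in PA/OA, a fall by 0.33 on the log2 scale (edgeR adjusted p = 0.00113). Zfp750, a regulator of the epidermis, reached 1 CPM in PA/OA libraries only. It had 10, 2 and 2 counts in PP libraries, against 70, 87 and 58 in PA/OA libraries.

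The partners of KRAB zinc-finger proteins were described from a list of 30 genes of corepressor and heterochromatin components. Of 29 tested, 13 (44.8%) were lower and 12 (41.4%) higher, with a median log2 fold change of -0.06. Of all genes 39.9% were lower and 35.1% higher, and of protein-coding genes 36.6% and 41.3%. A fall of at least 2-fold was called for 5 of the 29 (17.2%) and a rise of that size for 0, against 17.5% and 13.1% of protein-coding genes. Trim28, the corepressor that KRAB boxes bind, had 391, 394 and 385 CPM in PP libraries, against 249, 230.1 and 239.7 CPM in PA/OA libraries. It was higher in all PP libraries, by 0.70 ± 0.05 (log2, SE; adjusted p = 5.41e-11, edgeR). Its methyltransferase Setdb1 averaged 40.4 ± 0.744 CPM in PP and 56.8 ± 1.94 CPM in PA/OA, and the Setdb1 partner Atf7ip averaged 34.0 ± 2.20 CPM in PP and 54.5 ± 1.71 CPM in PA/OA. Both fell, with log2 fold changes of -0.49 and -0.68 (edgeR adjusted p = 1.46e-06 and 3.87e-08).

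The HP1 genes moved in different directions. Cbx5 was lower (log2 -0.34) and Cbx1 higher (log2 0.61), while Cbx3, at 0.28, turned to -0.16 by library size only. The HUSH complex, which adds to silencing by histone methylation, was also split. Fam208a, which encodes its scaffold TASOR, averaged 14.6 ± 2.69 CPM in PP and 54.4 ± 1.98 CPM in PA/OA, and Pphln1 averaged 38.1 ± 2.13 CPM in PP and 88.9 ± 1.95 CPM in PA/OA. Mphosph8, its reader subunit, averaged 42.1 ± 3.18 CPM in PP and 21.8 ± 2.25 CPM in PA/OA. The log2 fold changes of these 3 genes were -1.90, -1.22 and 0.95 (edgeR adjusted p = 3.20e-13, 3.46e-13 and 4.46e-09).

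Morc2a, an ATPase that works with HUSH, had 54.9, 48.7 and 52.6 CPM in PP libraries, against 154, 143.4 and 143.1 CPM in PA/OA libraries. It was lower in every PP library, by a log2 fold change of -1.50 ± 0.06 (SE; adjusted p = 3.80e-15, edgeR). Smarcad1, a remodeller that binds TRIM28, fell by 1.23 on the log2 scale (adjusted p = 6.30e-13, edgeR). Dnmt1, the maintenance DNA methyltransferase, was higher, with 67.6 ± 6.21 CPM in PP and 44.6 ± 0.511 CPM in PA/OA, but did not pass by library size only (adjusted p = 0.054). Other genes lie over Trim28, Setdb1, Atf7ip, Cbx1, Fam208a, Mphosph8, Morc2a and Dnmt1, and whether their reads entered these counts was not tested.

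**Figure D5:**
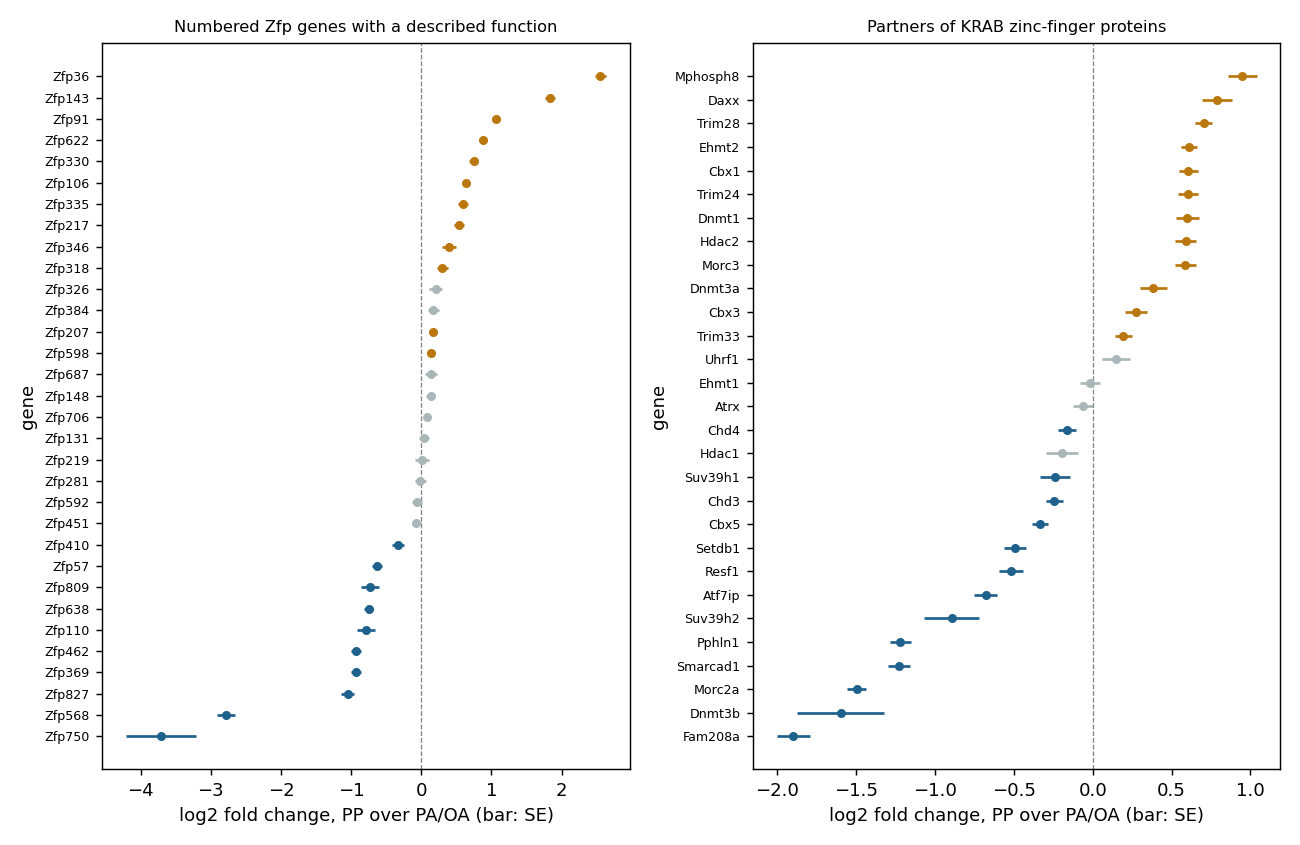
Log2 fold change, PP over PA/OA, with its SE for members with a described function (left) and for partners of KRAB proteins (right); orange was higher, blue lower and grey did not pass at an adjusted p of 0.05. Zfp36 is highest at 2.55 on the left, and the lowest there, Zfp750, reached 1 CPM in PA/OA libraries only. On the right Mphosph8 is highest at 0.95 and Fam208a lowest at -1.90.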

How the data were processed

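The authors deposited whole-number counts for each gene, with symbols, biotypes and coordinates. Per the submitters' processing notes it was made with featureCounts on build mm10, and DESeq2 1.16.1 is named without a role; aligner, annotation and strand setting: not given in the sources used here. In the range from 1 to 20, 57.1% to 61.5% of the deposited counts were even, so both mates of some read pairs may have been counted.

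Groups came from the treatment labels. The whole table was fitted with edgeR 4.0.16 in R 4.3.3 (filterByExpr, TMM, two-sided quasi-likelihood F-test, Benjamini-Hochberg, threshold 0.05). Log2 fold changes are PP minus PA/OA, CPM and RPKM are TMM-scaled, and RPKM uses the table's gene length. The biological coefficient of variation was 7.96%, and replicates were not copies of each other (chi-square per gene 2.99 to 4.57 on halved counts). The steps were tested on simulated data.

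Translated GENCODE M21 coding sequences were scanned for C2H2 fingers (2 to 4 residues between cysteines, 12 to the histidines, 3 to 5 between these), the KRAB A-box core and the SCAN core. Transcripts were compared by shared 50-base words. Start regions came from RefSeq, 1 per gene, for members the one nearest the table's gene start. In the set of all regions it was the one of lowest coordinate.

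Members and lists were chosen with earlier results of these data known, so lists are described by counts and medians and not tested. Named genes were the 8 largest falls and 6 largest rises (past the test, groups not overlapping, 1 CPM in both groups) and the 6 highest by RPKM. Listed members with a described function and the extremes of each cluster (printed here for those with 6 or more members) were also named. So were genes next to the 1 CPM limit and genes that reached 1 CPM in 1 group only. Corepressor genes were those with the smallest p or a named role. Zfp51, Zfp54, Zfp948, Zfp260, Zfp418 and Zfp213 were named after their values were seen.

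Alternatives were upper-quartile scaling, library size only, the size factors and the test of DESeq2 1.42.0, limma-voom (limma 3.58.1), 1 CPM in 3 libraries or no filter, a block for the replicate number, halved counts, protein-coding genes only, subtraction of a lowess trend (span 0.4) per library, other membership limits, cluster gaps of 100 and 1000 kb, and each library left out in turn.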

Additional observations from a re-analysis of the deposited data

How the results depend on the processing

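Falls outnumbered rises among the 280 genes under every alternative run. Removing the abundance trend moved the medians to -0.43 for all members, -0.64 for KRAB genes and -0.61 for genes in clusters. By library size only they were -1.08, -1.36 and -1.29, and -0.69 for genes without the KRAB pattern, with 29, 7, 9 and 22 genes higher among members, KRAB genes, clustered genes and genes without the pattern. With upper-quartile scaling the medians were -0.88, -1.17 and -1.10, and -0.50 without the KRAB pattern. With protein-coding genes only the median was -0.72, and -0.34 without the KRAB pattern; with 1 CPM in 3 libraries the median of genes without the pattern was -0.31. Among the 153 genes with no other gene over them 96 were lower and 34 higher (median -0.74), fewer because fewer genes enter. Of the 243 members at 1 CPM in both groups, an alternative added after seeing the data, the median was -0.44. With a cluster gap of 1000 kb, 33 clustered genes were higher. The cause of the scaling differences was not tested.

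Leaving out 1 library in turn gave 156 to 165 members lower and 57 to 65 higher, with a median from -0.68 to -0.59. The median ran from -0.96 to -0.82 for KRAB genes, from -0.22 to -0.16 for genes without the pattern and from -0.93 to -0.80 in clusters.

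Signs turned for single genes. By library size only the log2 fold changes were -0.30 for Zfp598, -0.35 for Zfp706, -0.27 for Zfp207, -0.25 for Zfp740, -0.136 for Zfp318, -0.0402 for Zfp346, -0.16 for Cbx3, -0.0137 for Zfp871 and -0.20 for Zfp982. With upper-quartile scaling they were -0.10 for Zfp598, -0.15 for Zfp706, -0.0685 for Zfp207, -0.0525 for Zfp740 and -0.009 for Zfp982. Without the abundance trend they were -0.27 for Zfp598, -0.39 for Zfp706, -0.28 for Zfp207, -0.20 for Zfp740, -0.0047 for Cbx3 and 0.0044 for Zfp456. Zfp982 was at 0.23 with all libraries, and with 1 library left out in turn it ran from -0.0572 (without PA/OA replicate 2) to 0.5354 (without PP replicate 2).

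Libraries of the same number did not deviate together (correlations 0.005, 0.003 and -0.023). With 3 libraries per group these values cannot decide whether the numbers pair the samples, and the labels do not say so. With the replicate block 161 members were lower and 61 higher (median -0.64). Depth limits genes near 1 CPM, where 1 library can decide a value.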
